A study of Mus musculus with 19 samples.

Results

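Constant regions were the stretches of the genome in which 5-hydroxymethylcytosine (5hmC) was found in every wild-type library of a reprogramming course. The deposited peaks of all 9 wild-type lists on chromosomes 1 to 19 were merged wherever they overlapped by 1 bp, and a merged region was kept when each of the 9 lists had a peak in it. Of 294585 merged regions, 3406 (1.16%) met this rule, and they held 4.36 Mb, or 3.05% of the merged bp. The presence of wild-type peaks therefore chose the members and is no result. Peaks of the knockout and embryonic stem cell lists took no part in the choice.

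5hmC is made when TET enzymes oxidise 5-methylcytosine. It is found over the bodies of active genes and at enhancers, and it can be an intermediate on the way to unmethylated DNA. Ascorbic acid (AA) supports TET activity, and 2i is a pair of inhibitors of GSK3 (CHIR-99021) and MEK (PD-0325901) that favours the naive pluripotent state. A region marked at each time point is thus one where a peak was found on each sampled day, whatever happened to the amount of the mark or to its place within the region.

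The cells were mouse pre-iPSCs derived from embryonic fibroblasts, which are intermediates stalled on the way to induced pluripotency. Wild-type (WT) cells had 3 libraries (A, B and C) at each of day 0, day 2 and day 10 (D0, D2 and D10). Knockout (KO) cells had 1 library of KO1 and 1 of KO2 on each of those days; which gene was deleted, and whether it is the same one in KO1 and KO2, is not in the labels. Mouse embryonic stem cells of the V6.5 line (mESC) gave 1 library at each of 0, 12 and 72 hours. All 18 libraries carry the treatment label AA+2i, D0 and 0 hours included, and the ascorbic acid dose for reprogramming cultures was 50 µg/mL. An input library of untreated pre-iPSCs had no list of its own. Peak lists carry no expression values, so the labelled cell types could not be checked against marker genes. The labels do not say that replicates came from separate cultures, nor that a letter marks the same culture on different days. For the assay, 5hmC received a modified glucose carrying biotin and the fragments were pulled down with streptavidin before sequencing, so a peak is a place where captured fragments exceeded the control, not a count of modified bases.

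Lists held 54997 to 160426 peaks on these chromosomes in WT, 60832 to 138007 in KO and 23876 to 33496 in mESC. Read depth relative to the control was read from the steps of the deposited fold values, and ran from 1.02 to 1.64 in 8 WT libraries and from 1.15 to 1.67 over the 6 libraries of KO. WT D0 C and the mESC libraries gave no readable value, and absolute depth is unknown. C had the fewest peaks of the WT libraries on each day. Names of the peak-calling runs inside the files come in 3 styles, WT A alone, WT B with KO1, and WT C with KO2, and may mark batches. The 6 run names of WT B and KO1 hold the word All; whether those lists come from pooled libraries is not stated, and if they do, WT B and KO1 are not single replicates and each SD, n and exact test that uses them is affected. Without WT B, 3890 regions were constant. The word input stands in 17 of the 18 run names and is missing from that of WT D0 C. Positions are on mm9. Regions are given by position alone, without sequence or genes, because no mm9 genome was used here.

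Membership turned mostly on 2 of the 9 libraries. A further 5662 regions had a peak in 8 of the 9 WT lists, and in 37.7% of these the list without a peak was WT D10 C and in 36.3% it was WT D0 C. Without WT D10 C there would have been 5536 constant regions, and without WT D0 C 5456. Leaving out any other library gave 3363 to 3918. When every list was restricted to its 54997 strongest peaks, the length of the shortest list, 1655 regions were constant.

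Constant regions were long. Their median length was 1106 bp (quartiles 757 and 1610, range 352 to 6755 bp), against 390 bp over all merged regions and 916 bp over the regions with a peak in 8 lists. At least 2 kb long were 490 of them. Median length rose with each further WT list that had a peak, from 270 bp for regions of 1 list. The rule asks for 9 lists, so the length follows in part from the choice of members. A long merged region can be built from peaks that touch without sharing a base, so the bp lying under a peak in all 9 lists, called the core here, were counted for each region. A core was present in 2295 of the 3406 (67.4%), with a median of 215 bp (quartiles 158 and 264), and it made up a median of 22.8% of the region. In the other 1111 regions no base was under a peak of every WT list, although each list had a peak somewhere in the region.

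In regions without a core, neighbouring days still often shared a base. Of the 1111, 866 (77.9%) had a base under all 6 lists of D0 and D2, and 773 (69.6%) had a base under all 6 lists of D2 and D10; 577 (51.9%) had both. A base under all 6 lists of D0 and D10 was present in 34 (3.06%), a low count that the lack of a core largely fixes. Over all constant regions the same counts were 3161 for D0 with D2, 3068 for D2 with D10 and 2329 for D0 with D10. In 117 regions no D0 peak of any library touched a D10 peak of any library. Regions without a core were longer, with a median of 1538 bp against 897 bp for those with one.

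The share of constant region bp that lay under peaks was not constant. Peaks covered 52.4%, 67.9% and 36.0% of their bp at D0 (WT A, B and C), 73.7%, 72.3% and 65.2% at D2, and 46.0%, 44.3% and 33.8% at D10. The D0 mean was 52.1 ± 16.0%, the D2 mean 70.4 ± 4.56% and the D10 mean 41.4 ± 6.60% (SD, n = 3 for each). All 3 D2 libraries lay above all 3 D10 libraries, while D0 overlapped with each of the other days. These libraries chose the regions, so no test was made between WT days. With equally long lists the means were 45.9 ± 12.1%, 61.3 ± 3.38% and 37.4 ± 3.12% (SD, n = 3 each).

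**Figure D1:**
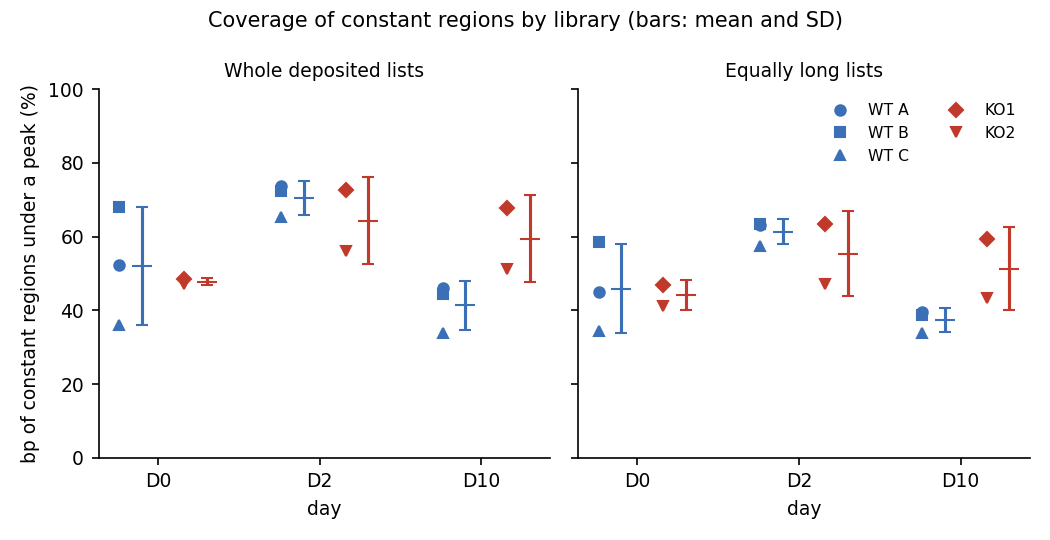
Percent of the bp of the 3406 constant regions that lay under a peak, by day, for each WT library (A, B, C) and each KO line, with the mean and SD of each group beside the points; the left panel uses whole lists and the right panel lists of 54997 peaks. WT coverage was highest at D2 (65.2 to 73.7% with whole lists) and lowest on average at D10 (33.8 to 46.0%), and both KO lines lay above all 3 WT libraries at D10 in both panels.

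Region by region, D2 was the day of widest coverage. The WT mean was highest at D2 in 2305 regions (67.7%), at D0 in 827 and at D10 in 274, and it was lowest at D10 in 2287 (67.1%). All 3 D2 libraries covered more bp than all 3 D0 libraries in 1198 constant regions (35.2%), against 13.9% of all merged regions, and fewer in 90 (2.64%, against 4.50%). All 3 D10 libraries covered fewer bp than all 3 D2 libraries in 2068 (60.7%, against 20.2%) and more in 72 (2.11%, against 4.56%). Between D0 and D10 the libraries did not overlap in 743 regions lower at D10 (21.8%, against 10.7%) and 279 higher (8.19%, against 7.14%). Since the rule used these libraries, the counts describe the members only. A merged region with a peak in only 1 or 2 WT lists (32.6% and 21.7% of all) could not differ in this way. The shares of constant and of all merged regions are therefore not like for like. The median log2 ratio of mean covered bp was 0.34 (D2 over D0), -0.65 (D10 over D2) and -0.34 (D10 over D0).

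Peaks in constant regions were among the stronger ones of most lists. By the authors' -log10 p, ranked within each list, the median WT peak in a constant region stood at the percentile 73.5, 80.3 and 63.9 at D0 (A, B and C), 87.9, 86.2 and 83.0 at D2, and 73.0, 68.7 and 61.7 at D10. They were also wider. At D2 the median peak width was 592, 608 and 539 bp, against 328, 356 and 342 bp over the whole lists. At D10 it was 413, 394 and 319 bp, against 319, 316 and 278 bp. The rule asked for a peak in all 9 WT lists, which favours strong and wide peaks. The WT ranks and widths therefore describe the members only. By median fold, WT D0 C peaks were not stronger than their list (4.37 against 4.47), while those of every other WT list were. Peaks in constant regions were 2.86 to 7.33% of a WT list. In KO lists, which did not enter the choice, the median percentile was 70.9, 86.8 and 83.7 for KO1 (D0, D2 and D10) and 75.1, 80.6 and 81.5 for KO2. In mESC lists it was 56.4, 58.9 and 55.0 at 0, 12 and 72 hours, so the mESC peaks found there lay close to the middle of their lists.

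The 5 longest constant regions show how far coverage could move while a peak stayed present. The longest, on chromosome 4 (141027258 to 141034012, 6755 bp), held 407, 1161 and 238 covered bp at D0 (WT A, B and C), 5026, 4236 and 4951 at D2, and 5372, 5977 and 4691 at D10. D0 was low and both later days were high, with no overlap; KO1 held 935, 4207 and 3487 bp (D0, D2 and D10) and KO2 358, 3741 and 4209 bp. All 3 mESC lists had a peak there, covering 2533, 2033 and 716 bp at 0, 12 and 72 hours. The region on chromosome 2 (72243682 to 72249116, 5435 bp) went the other way in WT A and B. It held 4453, 5365 and 664 bp at D0, then 2930, 2644 and 2384 at D2, and 584, 338 and 868 at D10, so at D0 the C library stood apart from A and B.

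At that chromosome 2 region the KO lines parted at D10. KO1 held 3816, 2564 and 4000 bp at D0, D2 and D10, and KO2 held 3432, 1599 and 699 bp. KO1 at D10 was thus near its D0 level and KO2 was within the WT D10 range. The region on chromosome 11 (120102090 to 120106948, 4859 bp) showed the same split, with 3077 bp in KO1 and 872 bp in KO2 at D10, against 1392, 1507 and 403 bp in WT.

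Of the other long regions, that on chromosome 10 (79436927 to 79442633, 5707 bp) was widest at D2, with 4373, 4997 and 4149 bp in WT against 809, 1994 and 363 at D0 and 2515, 3163 and 2285 at D10. Both KO lines kept this D2 width at D10 (4431 and 4471 bp, above all 3 WT libraries). On chromosome 1 (191592274 to 191597349, 5076 bp) WT held 2360, 3345 and 294 bp at D0, then 3786, 4128 and 3470 at D2, and 2299, 2234 and 1284 at D10. No mESC list had a peak there, and 4 of these 5 regions had none in the 72 hour list.

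**Figure D2:**
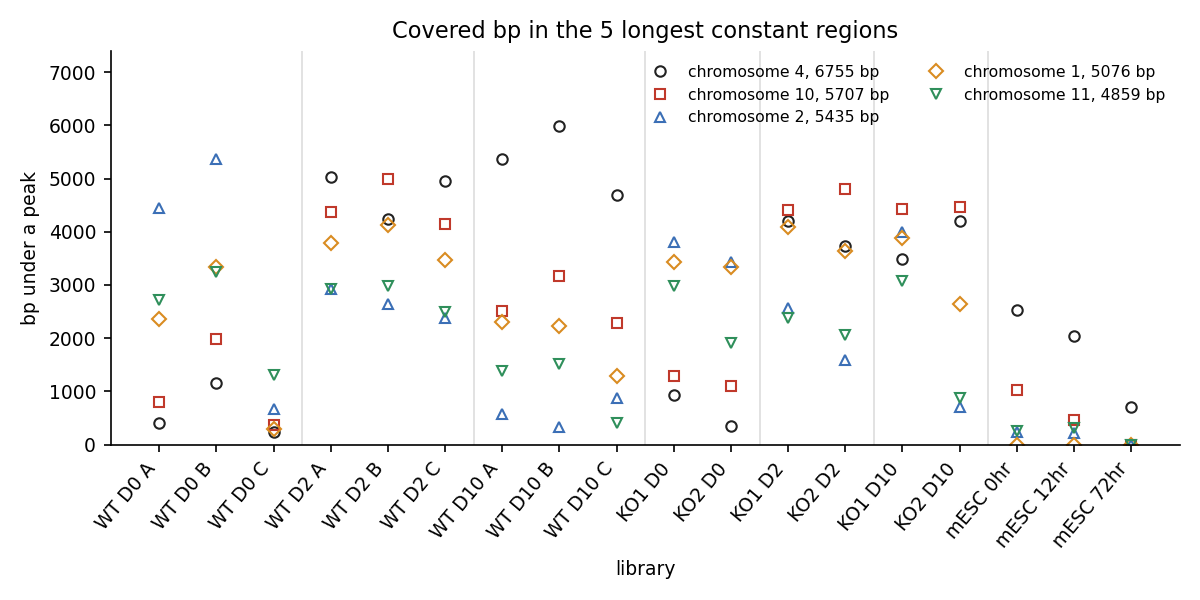
Covered bp (vertical axis) of the 5 longest constant regions in each of the 18 libraries (horizontal axis; grey lines part the groups). The chromosome 4 region held 238 to 1161 bp in WT at D0 and 4236 to 5977 bp in the WT libraries of D2 and D10, while the chromosome 2 region held 338 to 868 bp in WT at D10, below D0 in WT A and B but not in C (664 bp at D0).

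The 5 regions with the longest cores held at least 735 covered bp in each WT library. The longest core, 983 bp, lay on chromosome 5 (140913762 to 140915804), where WT libraries held 1290, 1372 and 1100 bp at D0, then 1546, 1159 and 1229 at D2, and 1881, 1808 and 1877 at D10. All 3 D10 libraries were above the others, and KO1 and KO2 held 1606 and 581 bp at D10. A core of 822 bp on chromosome 17 (84668001 to 84669628) varied least of the 5, from 924 to 1531 bp over the 9 WT libraries and from 1112 to 1308 bp over the 6 KO libraries. All 3 mESC lists had a peak there too (955, 980 and 750 bp).

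A core of 967 bp on chromosome 14 (32478787 to 32481054) gave the widest gap between the KO lines among the 5. WT held 2036, 2268 and 1275 bp at D0, then 1969, 2134 and 2045 at D2, and 1788, 1880 and 1649 at D10. At D10 KO1 covered all 2268 bp of the region and KO2 had no peak in it. The remaining long cores were on chromosome 10 (80606423 to 80608411, 687 bp) and chromosome 1 (34358507 to 34360623, 674 bp), and both had a peak in all 6 KO lists.

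Constant regions lay on all 19 autosomes, with 9.21 (chromosome 1) to 15.6 (chromosome 17) for each 1000 merged regions. Chromosome 8 followed with 14.4. Within 10 kb of another constant region were 635 (18.6%), and within 100 kb were 2103 (61.7%), against 25.7% and 72.1% of the more numerous regions with a peak in 8 lists. The megabase with most of them was on chromosome 11 (119000001 to 120000000), with 22 of its 434 merged regions, and 16 more lay in the next megabase.

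One cluster stood out after the values were seen and lay outside the rule for named regions. On chromosome 6, 18 constant regions lay within 122 kb (47601467 to 47723235), and they were 14.3% of the merged regions of that megabase; in the other 9 of the 10 densest megabases this share was 3.34 to 5.07%. The cluster held the only runs of more than 4 constant regions with gaps of at most 5 kb, 9 regions in each of 2 runs, with 49893 bp between the runs. In the first run the spacing was regular: from the second region to the ninth, 7 successive distances from start to start were 4301 to 4360 bp, with a median of 4328 bp. Whether these units share sequence was not tested.

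The share of bp under peaks in the chromosome 6 cluster had its lowest WT mean at D10. Of its bp, 64.9%, 95.4% and 21.3% were covered at D0 (WT A, B and C), 72.3%, 85.1% and 77.6% at D2, and 45.0%, 37.0% and 28.8% at D10. The D10 libraries lay below the D2 libraries, and D0 spanned from below to above both. KO1 covered 76.8%, 79.6% and 93.7% (D0, D2 and D10) and KO2 78.5%, 74.4% and 62.3%, so both lines were above all 3 WT libraries at D10. All 18 regions had a peak in all 6 KO lists. In mESC, 0, 4 and 1 of the 18 had a peak at 0, 12 and 72 hours.

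The first comparison with libraries that the rule did not use asked how often KO cells had a peak in the constant regions. At D0, 2877 (84.5%, 95% Wilson interval 83.2 to 85.6%) had one in KO1 and 2937 (86.2%) in KO2, against 19.1% and 23.5% of all merged regions. The interval covers counting error only, not the spread between libraries. At D2 the counts were 3353 (98.4%) and 3223 (94.6%), against 40.8% and 30.5%. At D10 they were 3312 (97.2%) and 3094 (90.8%), against 33.9% and 29.8%. The share was above the background in each of the 6 lists. It was lowest at D0 in both lines, where KO lists were also shortest (60832 and 86598 peaks, against 138007 and 113921 at D2 and 111808 and 111075 at D10). With 54997 peaks in each list, KO1 had a peak in 81.2%, 86.2% and 85.2% of them (D0, D2 and D10) and KO2 in 74.3%, 80.9% and 77.0%.

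**Figure D3:**
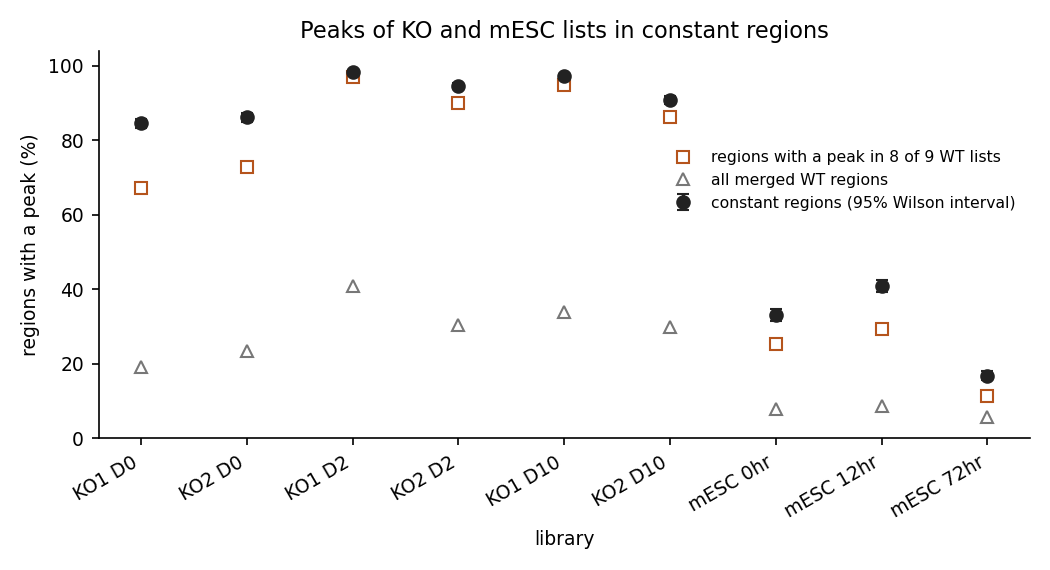
Percent of regions with a peak (vertical axis) in each KO and mESC list (horizontal axis), for the 3406 constant regions with 95% Wilson intervals, the 5662 regions with a peak in 8 of 9 WT lists and all 294585 merged regions. The intervals cover counting error only, not the spread between libraries. Constant regions lay between 84.5% and 98.4% in KO lists and between 16.7% and 40.9% in mESC lists, above both other sets in every list.

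A peak in all 6 KO lists was found in 2290 constant regions (67.2%), against 5.10% of all merged regions and 44.6% of those with a peak in 8 WT lists. Longer regions have more room for a peak, and the background was therefore also read by length. Of constant regions of 500 to 1000 bp, 57.9% had a peak in all 6 KO lists, against 8.40% of other merged regions of that length. From 1000 to 2000 bp the shares were 71.3% and 32.8%, and from 2000 bp upwards 89.4% and 64.3%. Below 500 bp, where only 118 constant regions fell, they were 30.5% and 0.478%. Regions are not replicates, and these shares carry no test across samples.

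With whole lists, the constant regions that lacked a KO peak lacked it mostly at D0, where KO lists were shortest. Of the 1116 without a peak in at least 1 KO list, 616 (55.2%) had a peak in all 4 KO lists of D2 and D10. Neither KO list had a peak in 195 regions at D0, in 12 at D2 and in 13 at D10. Over all merged regions the D0 share was also the lowest of each line (19.1% in KO1 and 23.5% in KO2). With 54997 peaks in each list the D0 and D10 shares of constant regions were closer. They were 81.2% and 85.2% in KO1, and 74.3% and 77.0% in KO2. At D10, 299 regions had a peak in KO1 alone and 81 in KO2 alone. Over all merged regions the D10 share was also higher in KO1 (33.9%) than in KO2 (29.8%). Of the 2295 regions with a core, a KO peak overlapped that core in 81.7% and 83.8% at D0 (KO1, then KO2), in 98.2% and 93.4% at D2, and in 97.4% and 85.2% at D10.

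Among the 13 regions with no KO peak at D10, those with the longest cores were short. The region on chromosome 8 (23758258 to 23758756, 499 bp) held 360, 355 and 306 bp in WT at D10. KO1 and KO2 held 485 and 386 bp there at D0 and 320 and 357 bp at D2, and 0 at D10. On chromosome 10 (56301813 to 56302290, 478 bp) the only KO peak was that of KO1 at D2 (325 bp), while WT held 254 to 459 bp throughout. On chromosome 14 (77161443 to 77162209, 767 bp) too, the single KO peak was that of KO1 at D2 (294 bp). Regions on chromosome 17 (75184005 to 75184785) and chromosome 4 (106595047 to 106595398) had 2 and 3 KO peaks, all at D0 or D2. A single constant region had no peak in any KO list, on chromosome 14 (118320281 to 118321385); it had no core, and WT held 226, 292 and 260 bp at D0 and 976, 876 and 298 bp at D10.

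To set KO beside WT libraries that took no part in the choice, each WT library was held out in turn. Regions were merged and chosen again from the other 8 lists, and the share with a peak was read in the held-out list and in the KO lists of the same day. A KO value is the mean over the 3 sets of regions chosen in this way, while a WT value comes from 1 set. Regions were not chosen again when labels were exchanged, so WT and KO values are not fully exchangeable and the permutation p-values are approximate. At D0 the held-out WT shares were 92.2%, 96.2% and 62.3% (A, B and C), with a mean of 83.6 ± 18.5% (SD, n = 3), and KO1 and KO2 had 78.3% and 82.0%. At D2 WT had 98.8 ± 0.987% (SD, n = 3) and KO1 and KO2 98.2% and 94.4%. At D10 WT had 89.7%, 86.3% and 61.4%, or 79.2 ± 15.5% (SD, n = 3), and KO1 and KO2 97.1% and 89.1%. KO and WT shares overlapped on D0 and D2, and at D10 KO1 lay above all 3 WT libraries while KO2 lay between A and B.

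The D0 share was lower in KO by a mean difference of -3.39 points (KO minus WT; exact permutation, two-sided, p = 1.00). The D2 difference was -2.46 points (exact permutation p = 0.300) and the D10 difference 14.0 points (exact permutation p = 0.500). With equally long lists they were -4.89 points (exact permutation p = 0.1, both KO lines below all 3 WT libraries) and 6.64 points (exact permutation p = 0.600). With 2 libraries against 3, no p below 0.1 can be reached on a single day. Over the 3 days, with libraries exchanged within days (1000 assignments), the difference was 2.71 points (two-sided exact permutation p = 0.673). The D0 and D10 differences were smaller than the SD between WT libraries; the D2 difference was larger than that SD, and KO1 lay within the WT range. Single libraries moved these values: without WT D0 A, B or C the D0 difference was 0.251, 1.51 or -17.8 points, and without WT D10 A, B or C the D10 difference was 24.7, 26.0 or 17.2 points. Without KO1 or KO2 at D2 the D2 difference was -4.38 or -0.549 points. Within run-name styles, over the regions chosen with that WT library held out, KO1 minus WT B was -14.1, -1.04 and 10.8 points at D0, D2 and D10, and KO2 minus WT C was 15.3, -3.62 and 27.0 points. Without WT B and KO1 on every day the differences were 3.97, -5.04 and 19.7 points.

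Coverage in KO libraries was then followed over the days. KO1 covered 48.4%, 72.6% and 67.7% of the bp of constant regions at D0, D2 and D10, and KO2 covered 47.2%, 56.0% and 51.1%. Both lines were highest at D2 and above their D0 level at D10, where all 3 WT letters were below theirs. With equally long lists KO1 and KO2 covered 59.2% and 43.4% at D10, still above WT A, B and C (39.6%, 38.7% and 33.8%). From D2 to D10 the change was -4.98 and -4.84 points in KO1 and KO2, and -27.8, -27.9 and -31.4 points in WT A, B and C. Both D10 libraries covered fewer bp than both D2 libraries in 445 constant regions (13.1%, against 4.67% of all merged regions) and more in 141 (4.14%, against 1.71%). Both D2 libraries covered more than both D0 libraries in 1337 regions (39.3%, against 13.9%) and fewer in 358 (10.5%, against 5.53%). Both D10 libraries covered more than both D0 libraries in 1150 (33.8%, against 10.2%) and fewer in 351 (10.3%, against 4.61%). Constant regions thus exceeded the background in both directions. Of all merged regions, only 19.1 to 40.8% had a peak in a given KO list, and they were shorter (median 390 bp, against 1106 bp). Most could not differ in either direction, so the 2 sets of shares are not like for like.

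A test per region was made in the 6 KO libraries with limma on log2(covered bp + 200) under equally long lists, over 72985 merged regions whose mean reached 100 covered bp, of which 3317 were constant. No region passed an adjusted p of 0.05 (Benjamini-Hochberg over all regions) between D0 and D2, D2 and D10 or D0 and D10, so 0% of all regions and 0 constant regions were called, up or down. At an unadjusted limma p under 0.05 there were 410, 51 and 399 constant regions in these contrasts (12.4%, 1.54% and 12.0%), against 19.6%, 3.13% and 17.5% of all regions tested. The median log2 change of constant regions was 0.12, -0.01 and 0.06, and of all regions 0.06, 0.00 and 0.03. With 2 libraries per day the test had little reach in simulated data on 72985 regions, for D10 against D0. It recovered 0% of 200 regions changed by log2 2, 0.5% of those changed by log2 3 and 60.5% of those changed by log2 5. Region length limits the change on this scale, and log2 3 and 5 are out of reach at the constant median of 1106 bp. Many more regions had a low unadjusted p in the real data (17.5% of all regions), so these rates need not hold there. In both contrasts with D0, some constant regions missed the adjusted threshold narrowly. The count of 0 is therefore not read as a lack of change. Leaving out a D0 or D10 library leaves that day with 1, which is then assumed to vary like the other days, and some of these fits made calls. Without KO1 D0, 302 constant regions (9.10%; 256 rose, 46 fell) were called between D0 and D2, against 14.5% of all regions (4049 rose, 6558 fell), and 312 (9.41%, against 14.7%) between D0 and D10. Without KO2 D0 these were 203 (6.12%, against 13.7%) and 188 (5.67%, against 12.9%), without KO1 D10 304 (9.16%, against 22.9%) and 408 (12.3%, against 20.9%), and without KO2 D10 303 (9.13%, against 22.9%) and 0. In each of these fits with calls, the share of constant regions was below that of all regions. The filter used the mean over the 6 KO libraries, so a region covered on a single day could enter the background. Most constant regions had KO peaks on every day. The shares of constant and of all regions, unadjusted ones included, are therefore not like for like, and the difference is not read as a trait of the constant regions.

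The position of the strongest peak inside a constant region moved with the day. For each region and list the summit of the peak with the highest -log10 p was taken, and lists were compared by the distance between summits. In WT the median distance was 44.7 bp within D0, 47.7 bp within D2 and 67.0 bp within D10 (means of 3 pairs each). Between D0 and D2 it was 90.7 bp, between D2 and D10 84.6 bp, and between D0 and D10 182 bp (means of 9 pairs each). All 9 pairs of D0 with D10 (174 to 192 bp) exceeded every pair from the same day (38.0 to 72.0 bp). Summits lay within 200 bp of each other in 87.0%, 84.2% and 79.3% of regions within D0, D2 and D10, and in 52.1% between D0 and D10. The strongest peak thus often had its summit elsewhere at D10 than at D0, although most regions (2329, above) also held a base marked in all lists of both days.

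KO summits followed the WT summits of their own day at D0 and D2. At D0, 85.3% of KO1 and 81.1% of KO2 summits lay within 200 bp of those of WT D0 (means of 3 WT libraries), and 49.7% and 53.2% of those of WT D10. At D2 the nearest day was WT D2, with 83.1% and 77.0%. At D10 the lines differed. KO1 lay within 200 bp of WT D0 in 76.2%, of WT D2 in 80.5% and of WT D10 in 62.6%, and KO2 in 50.4%, 71.4% and 70.5%. KO1 at D10 was thus nearer to WT D0 and D2 than to WT D10, and KO2 was as near to D2 as to D10 and far from D0. KO1 and KO2 summits of D10 lay within 200 bp of each other in 63.2%, less than any pair of WT D10 libraries (78.3 to 80.4%). With 1 library per line and day these are descriptions, with no test.

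**Figure D4:**
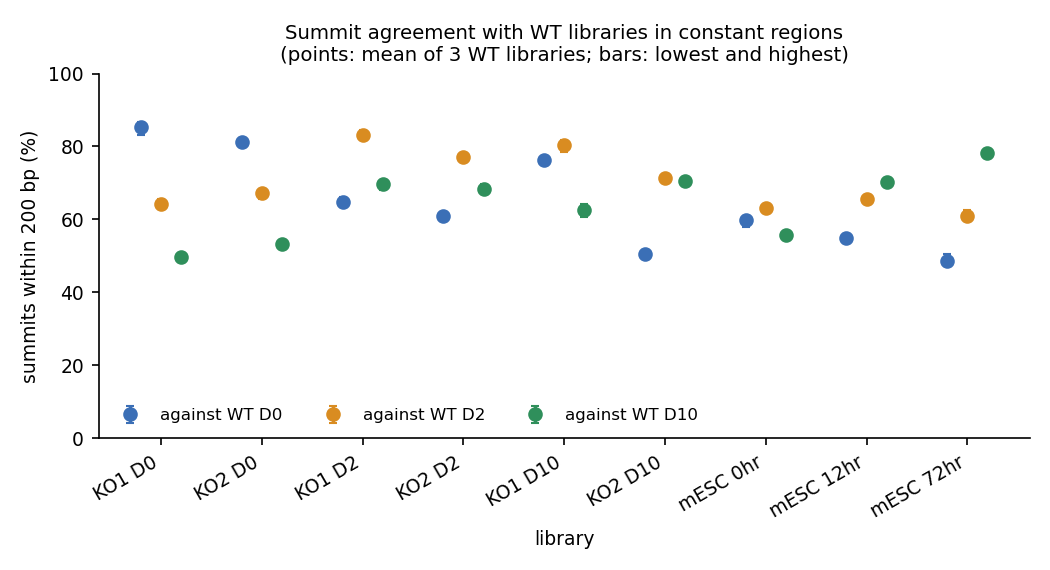
Percent of regions in which the summit of each list (horizontal axis) lay within 200 bp of that of a WT library. Colours give the WT day (D0, D2 or D10). Only constant regions with a peak in the KO or mESC list were counted, 570 for the 72 hour list. Points are means over 3 WT libraries and bars run from the lowest to the highest. The 72 hour mESC list was nearest to WT D10 (78.1%), KO1 at D10 to WT D2 (80.5%), and KO2 at D10 about equally to WT D2 and D10 (71.4% and 70.5%).

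Around the core, KO coverage had a single maximum near the centre. The 2295 regions with a core were aligned at the centre of their longest core interval, where WT coverage is 100% by the rule. KO1 peaks covered that base in 80.4%, 97.8% and 97.2% of regions (D0, D2 and D10), and KO2 peaks in 82.6%, 91.8% and 82.2%. At 1000 bp after the centre the shares were 8.93%, 18.7% and 14.0% for KO1 and 9.28%, 11.8% and 12.9% for KO2. In WT at that distance they were 9.32%, 14.8% and 2.92% at D0 (A, B and C), 18.2%, 15.9% and 12.8% at D2, and 9.80%, 9.76% and 6.45% at D10. In mESC they were 24.1%, 32.9% and 12.8% at the centre, and 1.61%, 2.09% and 1.48% at 1000 bp after it (0, 12 and 72 hours).

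**Figure D5:**
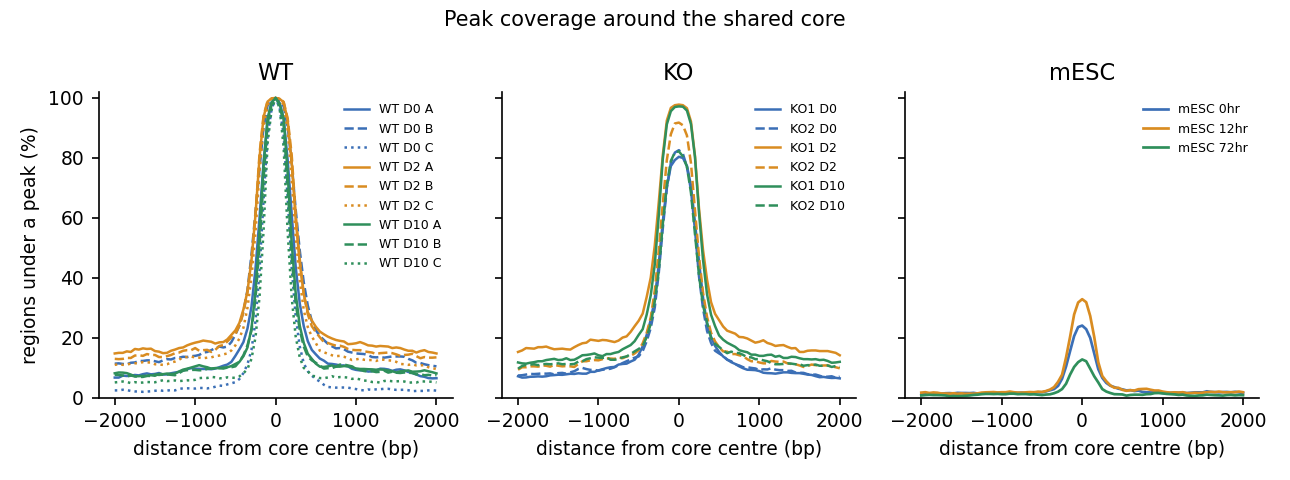
Percent of the 2295 constant regions with a core that were under a peak (vertical axis) at each distance in bp from the core centre (horizontal axis), by library, for WT, KO and mESC. WT is 100% at the centre by the rule; KO lists reached 80.4 to 97.8% there and mESC lists 12.8 to 32.9%.

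The last comparison asked how many constant regions were also marked in embryonic stem cells, which are already pluripotent. The 0, 12 and 72 hour lists had a peak in 1125 (33.0%), 1392 (40.9%) and 570 (16.7%) of them, against 7.78%, 8.63% and 5.66% of all merged regions. No mESC list had a peak in 1355 (39.8%). All 3 lists did in 130 (3.82%), against 0.369% of all merged regions. Most regions seen at 0 hours were not seen at 72 hours: 449 had a peak only in the 0 hour list and 511 in the 0 and 12 hour lists but not the third. A further 35 had a peak at 0 and 72 hours only. Since the 72 hour list had a peak in 16.7% of all constant regions, most would lack one whatever was seen at 0 hours. No loss over time is read from these counts. The 12 hour list was the only one with a peak in 521, the 72 hour list in 175, and these last 2 lists shared 230 without the first. With 1 library per time there is no replicate check, and the 72 hour list was the shortest (23876 peaks, against 30603 and 33496).

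By length, the 0 hour list had a peak in 24.2% of constant regions of 500 to 1000 bp and in 52.4% of those of 2000 bp upwards, while the 72 hour list had one in 16.6% and 17.6%. Other merged regions of these lengths had a 0 hour peak in 12.0% and 30.4% and a 72 hour peak in 7.21% and 8.70%. On chromosome 8, 75.7% of constant regions had a peak in at least 1 mESC list, against 49.0 to 63.8% on the other autosomes. Chromosome 8 also held 6.99%, 13.2% and 12.0% of all mESC peaks at 0, 12 and 72 hours, against 5.40 to 6.34% in WT lists. Without chromosome 8, 115 constant regions had a peak in all 3 mESC lists.

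Where mESC peaks fell inside constant regions, their summits were nearest to different days. The 0 hour summits lay within 200 bp of WT D0, D2 and D10 summits in 59.9%, 63.0% and 55.7% of regions. The 12 hour summits did so in 54.8%, 65.6% and 70.2%, and those of the 72 hour list in 48.5%, 61.0% and 78.1%. In the 570 regions where the 72 hour list had a peak, pairs of WT D10 libraries lay within 200 bp of each other in 79.6 to 83.2%.

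A peak in all 18 lists was found in 106 constant regions (3.11%), which is 4.63% of the 2290 that had one in all 6 KO lists. The longest core among them was that of 822 bp on chromosome 17 described above. Next came chromosome 5 (125496945 to 125498921, core 640 bp), where WT covered 1024, 1088 and 646 bp at D0, then 1589, 1233 and 1308 at D2, and 1446, 1865 and 1615 at D10. It was higher on both later days than at D0 in every WT library, and mESC covered 355, 918 and 547 bp. The region on chromosome 14 (120751389 to 120752845, core 526 bp) was highest at D2, with 1385, 1359 and 1413 bp against 982, 779 and 637 at D10, while the KO lines still held 1260 and 1273 bp at D10. Those on chromosome 1 (91786457 to 91789346, core 517 bp) and chromosome 17 (66725864 to 66726867, core 476 bp) completed the 5.

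Regions marked on only some WT days gave other KO shares at D10. Of regions with a peak in all 6 WT lists of D0 and D2 and none at D10, KO1 had a D10 peak in 93.8% and KO2 in 56.0%. Of regions with a peak in all 6 lists of D2 and D10 and none at D0, the shares were 59.1% and 83.4%. Constant regions, with 97.2% and 90.8%, were above both sets in both lines; this difference was not tested.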

How the data were processed

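Peak lists of 18 libraries were analysed on chromosomes 1 to 19. Bowtie, SAMtools, MACS2 and the build mm9 are named in the submitters' processing notes, without versions. Each deposited list holds, per peak, the authors' score, the fold enrichment as a ratio at the summit, -log10 of p and q, and the summit position, in the MACS2 column layout; the value 0.0001 after a p stands in each of the 18 run names. The mESC lists were used, although a label states that peak calling was skipped for them. These per-peak values served only to rank, filter or place peaks within a list, and to read relative depth.

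Merging, covered bp and cores were computed in Python 3.11.15 (numpy 2.4.6), and checked against base-by-base counting on simulated lists. Samples were grouped by titles. Group values are mean ± SD; shares have 95% Wilson intervals, which cover counting error only. Shares of held-out WT and KO libraries were compared by two-sided exact permutation of the finished shares, without choosing regions again. limma 3.58.1 (R 4.3.3; trend and robust) was fitted to the 6 KO libraries; log2 changes understate those of sparsely covered regions. KO1 and KO2 were taken as the same lines on each day, and their deviations correlated between days by 0.18 to 0.23 over 72985 regions (0.15 to 0.21 without chromosome 5). As the labels name no separate cultures, a p-value here reflects the spread of the samples at hand, which may be technical.

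Regions named are the 5 longest, and the 5 with the longest core among all constant regions, among those in all 18 lists and among those without a KO D10 peak; for each limma contrast the 3 largest rises and falls were to be named, and none passed. The members and lists were chosen with earlier results of these data known. Alternatives were list length, a stricter q, core overlap, merging distance, pseudocount, filter, blocking and leaving out libraries. No mm9 genome or annotation was used, so no sequence or gene is given; chromosome X was left out by the rule.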

Additional observations from a re-analysis of the deposited data

Results flagged for a closer look

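The change in the covered percentage of constant region bp from D0 to D10 went opposite ways in WT and KO. It was -6.45, -23.6 and -2.19 points in WT A, B and C, and 19.2 and 3.91 points in KO1 and KO2. It was singled out because every WT letter was lower at D10 and both KO lines were higher; the labels do not say that a letter marks the same culture, and unpaired the WT libraries of D0 (36.0 to 67.9%) and D10 (33.8 to 46.0%) overlapped. The difference between the genotypes was not tested, and the WT lists chose the regions. With equally long lists the changes were -5.27, -19.8 and -0.467 points in WT and 12.4 and 2.19 points in KO. WT D10 lists held 54997 to 86096 peaks and KO D10 lists 111075 and 111808. What the difference in list length contributed was not tested. No group had 4 or more libraries, so no search for an outlying sample was made.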

How the results depend on the processing

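The number of constant regions (3406) was 1655 with equally long lists, 2059 with -log10 q of at least 5 and 2030 when at least 100 bp were shared by all 9 lists; it was 2295 with 1 shared bp and 3934 with peaks merged up to 200 bp apart, and 3363 to 5536 with 1 WT library left out. Regions with a peak in all 6 KO lists (2290) numbered 1450 with equally long KO lists and 1363 when the peak had to overlap a core, and 2307 to 2558 with 1 KO library left out. Those in all 3 mESC lists (130) numbered 59 with -log10 q of at least 5 and 39 when the core had to be overlapped; without chromosome 8 they were 115. Fewer peaks or fewer eligible bp lower such counts by construction.

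The covered percentage with equally long lists (chosen after seeing the data) was 61.3 in place of 70.4 at WT D2, and 44.1 in place of 47.8 at KO D0.

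The KO minus WT share over 3 days turned to -0.0146 points with equally long lists (exact permutation p = 0.997). With 1 library left out it ran from -2.50 to 6.46 points, and the differences at D0, D2 and D10 from -17.8 to 1.51, from -4.38 to -0.549 and from 9.97 to 26.0 points. The D0 difference was positive without WT D0 A (0.251) or B (1.51), and that over 3 days was -2.50 without WT D0 C. Without the lists of WT B and KO1 (chosen after seeing the data) the D0 difference was 3.97 points. Over 60 alternatives the exact permutation p ran from 0.1 to 1.00, in designs too small to pass a threshold on single days.

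In the limma fits with KO1 or KO2 as a replicate block, 0 constant regions were called in each of the 3 contrasts, as without it. With a pseudocount of 50 bp, 205 (6.18%; 169 rose, 36 fell) were called for D2 against D0, against 14.3% of all regions (4375 rose, 6092 fell), and 203 (6.12%, against 13.9%) for D10 against D0; the cause was not tested. Leaving out 1 library gave 0 to 304 and 0 to 408 constant regions in these contrasts (up to 9.16% and 12.3%, against 22.9% and 20.9% of all regions in the same fits), and 0 to 0 for D10 against D2. The labels of KO and WT share no replicate number, so no replicate block was fitted between them; differences within run-name styles stand beside the held-out shares.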
